A study of Mus musculus with 6 samples.

Results

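Calcineurin, NFAT and CaMKII form a calcium-driven signalling arm of cardiac hypertrophy, and 10 of its genes were followed here in the pressure-overloaded left ventricle. The members were the rows of the deposited count table named Ppp3ca, Ppp3cb, Ppp3r1, Rcan1, Rcan2, Nfatc1, Nfatc2, Nfatc3, Nfatc4 and Camk2d, 10 of 54532 genes in the table, and 10 of 10 passed the filter on low counts that left 14774 genes to test. RNA was sequenced from left ventricles, 3 from TG mice and 3 from NTG mice, all of them 4 weeks after aortic banding (AB), an operation that narrows the aorta and loads the left ventricle with pressure. TG mice (genotype HINT2CTG-Myh6Cre) overexpressed HINT2, a mitochondrial nucleotide-binding protein, from a CAG promoter after tamoxifen had activated Cre in cardiomyocytes under the Myh6 promoter. NTG mice (C57BL/6J) were non-transgenic, and whether they carried Cre or received tamoxifen is not given in the sources used here, so effects of HINT2, Cre and tamoxifen cannot be told apart. All mice were males of 8 to 10 weeks at surgery, and every group had been banded, so a value lower or higher in TG is a difference between banded hearts. Sham-operated hearts were not analysed here.

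Calcineurin is a phosphatase that calcium and calmodulin switch on. It consists of a catalytic A subunit, encoded by Ppp3ca, Ppp3cb or Ppp3cc, and a regulatory B subunit encoded by Ppp3r1. Active calcineurin strips phosphate from the cytoplasmic NFATc factors, which then enter the nucleus and act with GATA4 and MEF2 on hypertrophic genes. Rcan1 and Rcan2 encode proteins that bind and restrain calcineurin, and the short Rcan1 transcript, which starts at an internal promoter, is itself an NFAT target and is widely read as a reporter of calcineurin activity. CaMKII is a calmodulin-dependent kinase whose main cardiac isoform is encoded by Camk2d. It phosphorylates class II histone deacetylases, which frees MEF2, and it also acts on proteins that handle calcium. Much of this signalling runs through phosphorylation and movement into the nucleus, and RNA levels do not measure either.

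RNA levels of 9 of the 10 genes overlapped between TG and NTG hearts, and 1 did not, against 23.5% of all genes. Nfatc4, the exception, was 37.5% lower in TG, with all TG libraries below all NTG libraries, but it did not pass the adjusted test. The group means of the other 9 differed by between 1.04% and 10%. By edgeR's quasi-likelihood test, with p adjusted over all 14774 genes, a gene was called when this p was under 0.05 and the log2 fold change exceeded 0.5 in either direction. Of the members, 0 of 10 members were called, against a background of 0.0% of all genes. Without adjustment, 1 of 10 members had p under 0.05 (Nfatc4, lower in TG), as had 18.6% of all genes, 8.83% higher and 9.76% lower in TG. DESeq2 also called 0 of 10 members, against 3.95% of all genes.

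Promoter sequences are shown for Nfatc4, the member that differed most, and for Rcan1, the member that NFAT is known to drive, at the 2 starts that the RefSeq table lists. They are 300-base windows from 250 bases before to 50 bases after a start site (RefSeq, GRCm38.p6), written from 5′ to 3′ on the gene's strand. Capitals mark each copy of GGAAA, the core recognised by NFAT, or of its reverse complement TTTCC. The Rcan1 internal start lies at chr16:92400029-92400328 on the minus strand, 1 base from a transcript start of the GENCODE annotation, and its window holds 3 copies. The Rcan1 upstream start lies at chr16:92466120-92466419 on the minus strand, 23 bases from such a start, and its window holds 0 copies. The Nfatc4 start lies at chr14:55824545-55824844 on the plus strand, at such a start, and its window holds 3 copies.
Rcan1, internal start: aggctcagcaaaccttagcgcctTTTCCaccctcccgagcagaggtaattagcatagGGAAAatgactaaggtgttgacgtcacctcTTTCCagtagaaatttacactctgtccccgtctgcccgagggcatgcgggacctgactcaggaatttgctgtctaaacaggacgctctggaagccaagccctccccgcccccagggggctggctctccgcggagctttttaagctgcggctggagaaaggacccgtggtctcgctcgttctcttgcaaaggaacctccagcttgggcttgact
Rcan1, upstream start: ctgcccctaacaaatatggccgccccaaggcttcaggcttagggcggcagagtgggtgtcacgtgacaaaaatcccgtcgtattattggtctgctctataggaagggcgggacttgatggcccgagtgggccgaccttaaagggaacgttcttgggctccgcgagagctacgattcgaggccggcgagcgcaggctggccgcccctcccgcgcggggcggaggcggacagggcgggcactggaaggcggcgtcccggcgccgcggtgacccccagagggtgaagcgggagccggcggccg
Nfatc4: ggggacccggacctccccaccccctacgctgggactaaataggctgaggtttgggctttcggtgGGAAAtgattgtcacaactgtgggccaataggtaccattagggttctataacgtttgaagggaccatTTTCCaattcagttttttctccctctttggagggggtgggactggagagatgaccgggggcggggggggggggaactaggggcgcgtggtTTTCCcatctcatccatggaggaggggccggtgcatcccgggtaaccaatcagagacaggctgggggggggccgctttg

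Of 32851 windows of the same length across the genome's genes, 61.3% hold at least 1 copy and 9.42% hold at least 3, so copies of so short a motif are common. The letters also lie within the sites of other factors such as ETS proteins, which share the core GGAA. Windows of 8 of 10 members were found, with Ppp3ca and Nfatc1 missing, and several members have more than 1 start. Ppp3cb, a catalytic subunit gene, had 4 copies, which 2.65% of windows reach. Nfatc2 had 3 and 1 at its starts, Rcan2 had 2, 0 and 0, Camk2d had 1, Nfatc3 had 1 and 0, and Ppp3r1 had 0. A copy is a match of letters, and the deposited counts per gene do not separate the transcripts of the Rcan1 starts.

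Library sizes were alike between the groups, from 14863568 to 17581220 counts in NTG and from 14944465 to 17235802 in TG. Hint2, the gene that TG mice overexpress, had 12 counts in the library labelled NTG 1, 545 and 559 in NTG 2 and NTG 3, and 793, 828 and 859 in TG 1 to TG 3. The library labelled NTG 1 therefore went against its group for this gene, and values without it are given where a call or a direction rests on it. Hint2 was higher in TG by a log2 fold change of 1.33 (SE 0.86, edgeR's adjusted p = 0.433), and by 0.77 (edgeR's adjusted p = 0.0212) without NTG 1. Without that library edgeR called 836 genes, 5.52% of those tested (2.67% higher and 2.85% lower in TG), and 0 of the 10 members. Cardiomyocyte markers were strong in every library (6 genes, summed to between 17928 and 36105 CPM, that is, counts scaled to a common library size), as left ventricle should have, and leukocyte markers were low (133 to 364 CPM for 7 genes).

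**Figure D1:**
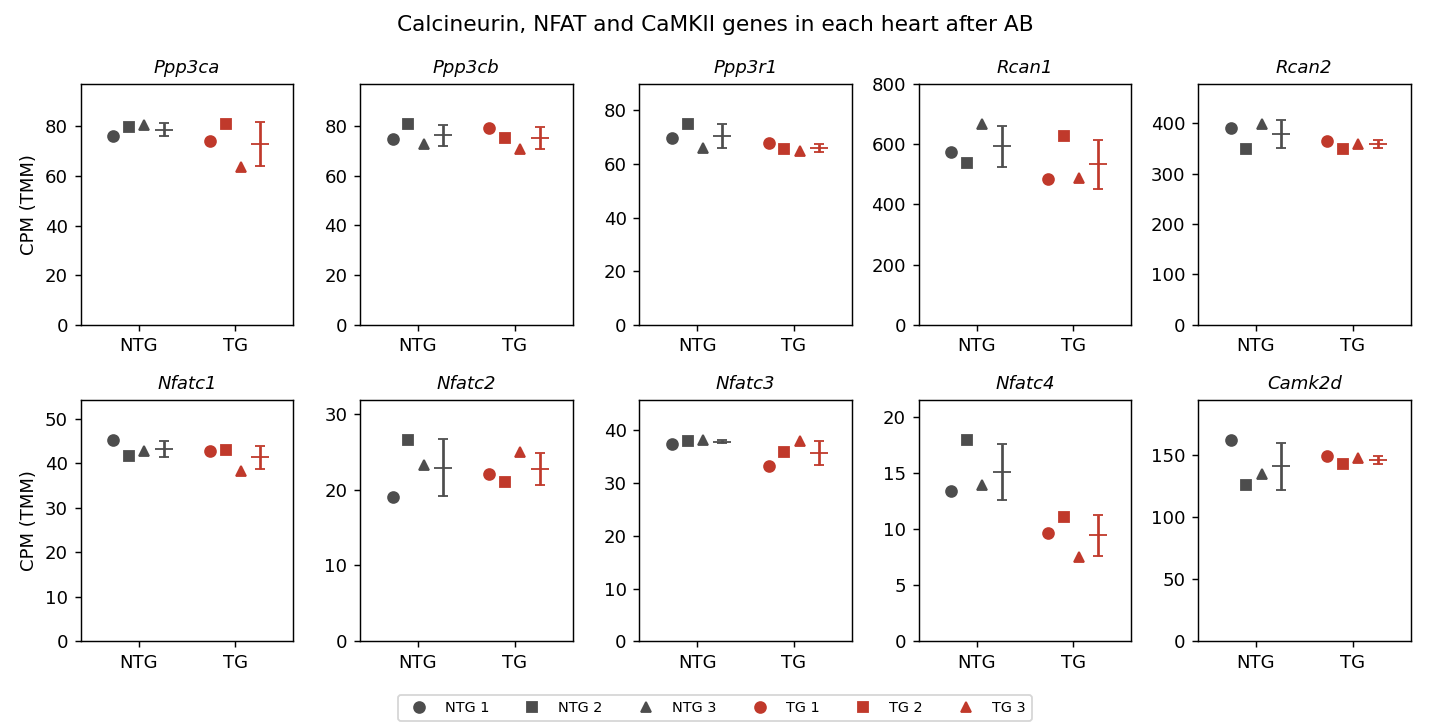
Level of each of the 10 genes in each heart, in CPM with TMM normalization on axes that start at 0, with NTG in grey and TG in red; bars give the mean ± SD of 3 hearts. The groups overlap in every panel but that of Nfatc4, where the 3 TG hearts lie between 7.47 and 11.1 CPM and the 3 NTG hearts between 13.4 and 17.9 CPM.

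The genes of the calcineurin subunits overlapped between the groups. Ppp3ca, the gene of the alpha catalytic subunit (ENSMUSG00000028161, chr3:136670124-136937727, plus strand, GRCm38), had 75.9, 79.8 and 80.4 CPM in NTG 1 to NTG 3 and 74.1, 81.0 and 63.6 CPM in TG 1 to TG 3. The TG libraries spanned the NTG range on both sides, and TG 3 was the lowest of all. The fitted log2 fold change, TG minus NTG, was -0.11 (SE 0.11, 95% interval -0.35 to 0.13, edgeR's adjusted p = 0.591), with -0.02 without TG 3 and -0.19 without TG 2. Ppp3cb, the gene of the beta catalytic subunit (ENSMUSG00000021816, chr14:20499364-20546573, minus strand), had 74.6, 80.8 and 72.8 CPM in NTG and 79.3, 75.0 and 70.6 CPM in TG. Its group means, 76.1 ± 4.16 and 75.0 ± 4.32 CPM (SD, n = 3 each), were closer to each other than the libraries within a group. The log2 fold change was -0.02 (SE 0.09, 95% interval -0.23 to 0.18, edgeR's adjusted p = 0.915).

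Ppp3r1 encodes the regulatory B subunit that both catalytic subunits need (ENSMUSG00000033953, chr11:17159263-17200375, plus strand). It had 69.8, 75.0 and 66.1 CPM in NTG and 67.7, 65.5 and 64.8 CPM in TG. The highest TG library lay above the lowest NTG library, so the groups overlapped. The log2 fold change was -0.09 (SE 0.09, 95% interval -0.29 to 0.11, edgeR's adjusted p = 0.581). Exons of Ppp3r1 overlap those of Wdr92 on the same strand, and reads there could have been counted for either gene or for neither.

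Scaled by gene length, each catalytic subunit gene made up a comparable share of the family in every heart. Ppp3ca took 30.6% ± 1.27 in NTG and 28.7% ± 3.02 in TG (SD, n = 3 each), and Ppp3cb took 33.4% ± 0.933 and 33.4% ± 0.554. The rest belonged to Ppp3cc, the gene of the gamma catalytic subunit, with 36% ± 1.28 and 37.9% ± 3.34. On this scale Ppp3cc, which is not a member, had the largest share in every heart. The differences of -1.89 points for Ppp3ca and 1.91 points for Ppp3cc were smaller than the spread among the TG hearts. TG 1 and TG 3 had the lowest Ppp3ca shares (27.1% and 26.8%), while TG 2 had the highest of all 6 (32.2%).

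Rcan1 and Rcan2 were the strongest members, and neither differed beyond the spread between hearts. Rcan1, the calcineurin inhibitor that calcineurin activity itself induces (ENSMUSG00000022951, chr16:92391953-92470867, minus strand), had 574, 537 and 668 CPM in NTG and 486, 628 and 487 CPM in TG. TG 1 and TG 3 were below all NTG hearts, whereas TG 2 was above NTG 1 and NTG 2. The mean was 593 ± 67.6 CPM in NTG and 533 ± 81.4 CPM in TG (SD, n = 3 each), a log2 fold change of -0.15 (SE 0.15, 95% interval -0.51 to 0.20, edgeR's adjusted p = 0.611). It was -0.29 without TG 2 and -0.06 without NTG 3. The interval with all libraries reached just past a log2 fold change of -0.5, so these 6 libraries leave a difference of that size within range for Rcan1.

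Rcan2, which encodes a related inhibitor that is constitutively made in muscle and brain (ENSMUSG00000039601, chr17:43801351-44039516, plus strand), had 391, 348 and 399 CPM in NTG and 364, 349 and 359.6 CPM in TG. The TG libraries all fell inside the NTG range. The log2 fold change was -0.08 (SE 0.11, 95% interval -0.34 to 0.17, edgeR's adjusted p = 0.699). Within the family, Rcan1 took 67.9% ± 1.58 of the length-scaled level in NTG and 66.6% ± 3.6 in TG, and Rcan3 took 1.4% and 1.5%. Rcan1 was thus the prevailing inhibitor gene in every heart, with a share between 64.4% and 70.8%.

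Among the NFATc factors, Nfatc4 stood apart from the other 3. Nfatc4 encodes the factor best known as a partner of GATA4 in hypertrophy (ENSMUSG00000023411, chr14:55823144-55833943, plus strand). It had 13.4, 17.9 and 13.9 CPM in NTG, from 196, 338 and 240 counts, and 9.66, 11.1 and 7.47 CPM in TG, from 134, 196 and 121 counts. The highest TG library lay below the lowest NTG library, and non-overlapping groups with TG lower were seen for 12.3% of all genes tested. The mean was 15.1 ± 2.51 CPM in NTG and 9.43 ± 1.85 CPM in TG (SD, n = 3 each), a log2 fold change of -0.68 (SE 0.19, 95% interval -1.11 to -0.24). The unadjusted p of edgeR's quasi-likelihood test was 0.00711 and the adjusted p 0.196, the smallest that any gene reached and one that other genes share. DESeq2 gave an adjusted p of 0.0561. An exact two-sided permutation test on the CPM values gave p = 0.1, the smallest that 3 against 3 libraries allow.

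The size and the call of the Nfatc4 difference moved with the library left out, while its direction could not, since the groups do not overlap. With NTG 1 left out it was -0.76 on the log2 scale (edgeR's adjusted p = 0.0635), and without NTG 2, the heart with the highest level, -0.53 (edgeR's adjusted p = 0.446). DESeq2 called Nfatc4 without NTG 1 (adjusted p = 0.0277), where it called 11.7% of all genes, and without TG 2 (adjusted p = 0.0357), where it called 5.17%. Over 21 alternative settings the log2 fold change ranged from -0.82 to -0.53 and the adjusted p from 0.0277 to 0.446.

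The other NFATc genes overlapped between the groups. Nfatc1, whose product acts in endothelial and valve development as well as in muscle (ENSMUSG00000033016, chr18:80606205-80713071, minus strand), had 45.1, 41.6 and 42.6 CPM in NTG and 42.6, 42.9 and 38.3 CPM in TG, a log2 fold change of -0.06 (SE 0.09, edgeR's adjusted p = 0.728). Nfatc2, best known from T cells (ENSMUSG00000027544, chr2:168476410-168601657, minus strand), had 19.0, 26.5 and 23.2 CPM in NTG and 22.1, 21.0 and 25.0 CPM in TG. Its lowest and its highest library were both NTG, and the log2 fold change was -0.02 (SE 0.14, edgeR's adjusted p = 0.966). Nfatc3, a factor that calcineurin acts through in the mouse heart (ENSMUSG00000031902, chr8:106058840-106130537, plus strand), had 37.5, 37.9 and 38.1 CPM in NTG and 33.3, 35.9 and 38.0 CPM in TG. The NTG values lay within 1 CPM of each other, and TG 3 reached their level, so the log2 fold change of -0.08 (SE 0.09, edgeR's adjusted p = 0.644) did not pass. Exons of Nfatc3 overlap those of Esrp2 on the opposite strand, and with libraries not stated to mark strand their reads cannot be told apart there.

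The makeup of the NFATc family showed the same contrast between Nfatc4 and the rest. On the length-scaled level, Nfatc4 held 17.2%, 21.4% and 17.6% of the family in NTG and 13.5%, 15.1% and 10.7% in TG. The groups did not overlap, and the share was 5.68 points lower in TG (18.8% ± 2.32 against 13.1% ± 2.22, SD, n = 3 each). Nfatc1 was the leading member in every heart, with 42.2% ± 3.3 in NTG and 44.9% ± 1.89 in TG. Nfatc3 followed with 23.4% ± 0.899 and 24.7% ± 1.98, and Nfatc2 with 15.7% ± 2.03 and 17.4% ± 2.06. These 3 shares overlapped between the groups, and their sum is by construction higher where the share of Nfatc4 is lower.

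**Figure D2:**
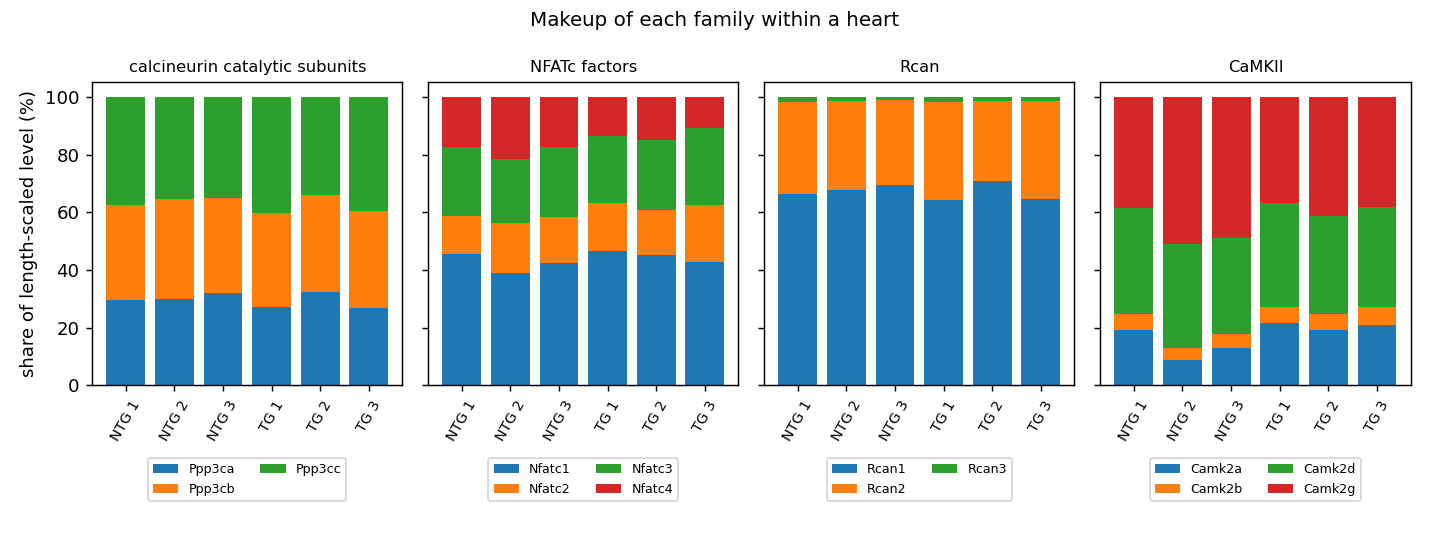
Share (%) of each gene in the length-scaled level of its family, 1 bar per heart, for the calcineurin catalytic subunits, the NFATc factors, Rcan and CaMKII. The Nfatc4 segment runs from 10.7% to 15.1% in the 3 TG hearts and from 17.2% to 21.4% in the 3 NTG hearts, while the Camk2d segment stays between 33.4% and 36.7% in all 6.

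Camk2d, known as the gene of the main cardiac CaMKII isoform, was the single member with a fitted value higher in TG (ENSMUSG00000053819, chr3:126596302-126846326, plus strand). It had 162, 126 and 135 CPM in NTG and 149, 143 and 148 CPM in TG. All TG libraries fell inside the NTG range, and the SD was 19.0 CPM in NTG and 3.33 CPM in TG. The log2 fold change was 0.05 (SE 0.11, 95% interval -0.21 to 0.32, edgeR's adjusted p = 0.821), and it was -0.02 without NTG 2, the lowest of the libraries. Its share of the 4 CaMKII genes was 35.3% ± 1.66 in NTG and 34.9% ± 1.17 in TG (SD, n = 3 each), a difference of -0.443 points.

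In percentage points, the shares of Camk2a and Camk2g varied more between hearts than that of Camk2d. The far smaller share of Camk2b varied less in points but more relative to its mean. Camk2b took 4.82% ± 0.579 of the family in NTG and 5.84% ± 0.428 in TG (SD, n = 3 each). Its share ran from 4.29% to 5.43% in NTG and from 5.58% to 6.33% in TG without overlap, although its CPM overlapped between the groups. Camk2a, the isoform best known from brain, took 19.3%, 8.75% and 13.1% of the family in NTG and 21.5%, 19.2% and 20.8% in TG. Camk2g, which is widely expressed, took 38.6%, 51.2% and 48.7% in NTG and 36.8%, 41.5% and 38.2% in TG. In every heart the share of Camk2g was above that of Camk2d. The length of 22493 bases used for Camk2d includes long exons that not every transcript holds, which lowers its share. Without scaling by length, the mean of Camk2d was 141 CPM in NTG and 146 CPM in TG, and that of Camk2g 51.9 and 46.4 CPM. For Camk2a and Camk2g the library labelled NTG 1 lay within the TG range, and NTG 2 lay farthest from it.

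Taking the 10 genes as a list, 9 had a fitted value lower in TG (all 10 under scaling by library size alone, which moved the median of all genes to -0.093), against 51.3% of all genes tested, with a median log2 fold change of -0.083 against -0.008 for all genes. The median was -0.094 without NTG 1 and -0.086 without NTG 2. For 8 of 10 members the 95% interval of the log2 fold change lay wholly between -0.5 and 0.5, which held for 36.5% of all genes tested and for 57.6% of the 8479 genes at least as strong as the weakest member. The exceptions were Nfatc4 and Rcan1. The 10 genes share a pathway and their libraries, so they are not independent of each other.

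**Figure D3:**
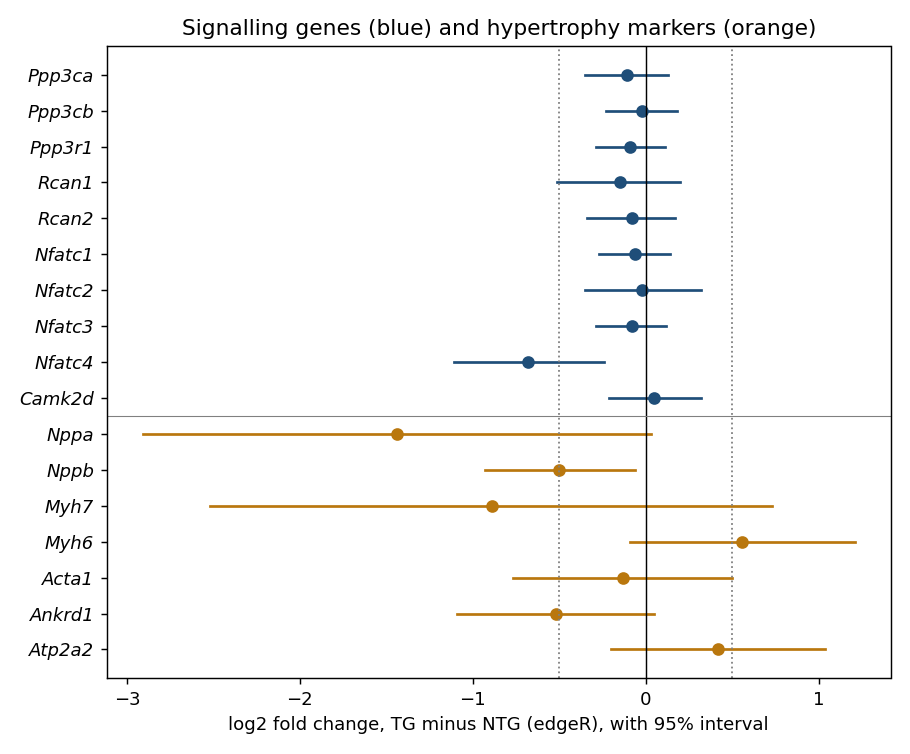
Log2 fold change, TG minus NTG, with its 95% interval from edgeR's fit over 3 hearts per group, for the 10 signalling genes in blue and 7 hypertrophy markers in orange; dotted lines mark 0.5 in either direction. The intervals of 8 signalling genes lie between the dotted lines, that of Nfatc4 lies below 0, and that of Nppa runs from -2.91 to 0.03.

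Per kilobase of gene length, the members covered a wide range of levels. Rcan1 was highest, with 192 ± 21.9 CPM per kilobase in NTG and 173 ± 26.4 in TG, followed by Rcan2 with 86.7 ± 6.26 and 81.8 ± 1.81 and by Ppp3r1 with 21.8 ± 1.4 and 20.4 ± 0.479 (SD, n = 3 each). Each of these 3 stayed clear of the next in all 6 libraries. Ppp3cb, Ppp3ca, Camk2d and Nfatc1 came next, from 8.57 down to 5.68 CPM per kilobase on average over the 6 libraries, and each overlapped its neighbour in this order. Nfatc3 followed at 3.14, and Nfatc2 and Nfatc4 came last, at 2.15 and 2.11 over all 6 libraries. Their order differed by group. Nfatc4 lay above Nfatc2 in every NTG heart (means 2.59 and 2.16) and below it in every TG heart (1.62 and 2.14). In TG 2 the margin was narrow, with family shares of 15.1% and 15.6%. Among the members, the phosphatase genes, Rcan1 and Rcan2 thus lay above the NFATc factors in RNA per length. The inhibitor genes Rcan3 and Cabin1, which are not members, lay below Nfatc1. Gene lengths are those in the deposited table, and for Camk2d, with 22493 bases, they include long exons that not every transcript holds, which lowers its value per kilobase.

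Among the hypertrophy marker genes, Nppa and Myh7 varied more between hearts than any member, with coefficients of variation of 31.4% and 48.0% in NTG and 86.4% and 87.6% in TG. The members lay between 0.766% and 16.6% in NTG and between 2.22% and 19.6% in TG. Nppa, the gene of atrial natriuretic peptide, had 754, 1394 and 1400.5 CPM in NTG and 172, 867 and 268 CPM in TG. The TG hearts split, with TG 2 inside the NTG range and TG 1 and TG 3 far below it, and the log2 fold change of -1.44 (SE 0.61) had an adjusted p of 0.275 in edgeR's test. Nppb, the gene of brain natriuretic peptide, had 1230.2, 1559 and 1509 CPM in NTG and 1009, 1229 and 809 CPM in TG. Its groups did not overlap, although NTG 1 and TG 2 were next to equal, and its log2 fold change was -0.50 (SE 0.19, edgeR's adjusted p = 0.227). Myh7, the slow myosin heavy chain re-expressed in hypertrophy, had 804, 2303 and 2312 CPM in NTG and 585, 1952 and 384 CPM in TG (log2 fold change -0.89, edgeR's adjusted p = 0.501). Ankrd1, a stress-induced ankyrin repeat protein, had 4129.9, 4517 and 5430 CPM in NTG and 2547, 4501 and 2792 CPM in TG (log2 fold change -0.52, edgeR's adjusted p = 0.3).

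Myh6, the adult fast myosin heavy chain whose promoter also drives Cre in TG mice, had 10584, 5009 and 8421 CPM in NTG and 12879.9, 9942 and 12541 CPM in TG (log2 fold change 0.56, edgeR's adjusted p = 0.323). Atp2a2, the calcium pump of the sarcoplasmic reticulum, was also higher by 0.42 (edgeR's adjusted p = 0.414), and Acta1, skeletal actin, differed by -0.13 (edgeR's adjusted p = 0.813). Of the 7 markers, 5 had a lower and 2 (Myh6 and Atp2a2) a higher fitted value in TG, against 51.3% lower among all genes tested. The paper counts increased expression of αMHC, the product of Myh6, among its signs of reduced remodelling. At an unadjusted p under 0.05, 1 of the 7 was lower (Nppb), against 9.76% of all genes. With all libraries, edgeR and DESeq2 called 0 of the 7, against 0.0% and 3.95% of all genes. DESeq2 called Nppa, Nppb, Myh7 and Ankrd1 without TG 2, where it called 5.17% of all genes, Nppb, Myh6 and Atp2a2 without NTG 1, where it called 11.7%, and 0 of the 7 with any of the other 4 libraries left out. When edgeR was run with 1 library left out, the log2 fold change ranged from -2.43 (without TG 2) to -1.06 (without TG 1) for Nppa, from -1.90 (without TG 2) to -0.51 (without TG 3) for Myh7, and from -0.81 (without TG 2) to -0.37 (without TG 1) for Ankrd1. Without NTG 1 and without NTG 2 it was 0.81 and 0.31 for Myh6 and 0.70 and 0.19 for Atp2a2.

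Rcan1 showed the same split of the TG hearts as Nppa, Myh7 and Ankrd1, on a smaller scale. Its level was lowest in TG 1 and TG 3 and, in TG 2, above 2 of the 3 NTG hearts. The log2 distance between TG 2 and the other TG hearts is visible in the map of levels by heart. This split was not particular to these genes. The first principal component of all genes, with 52.3% of the variance, put NTG 1 to NTG 3 at -5.08, 55.7 and 29.3 and TG 1 to TG 3 at -32.7, -10.7 and -36.5, so that TG 2 and NTG 1 were next to each other.

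**Figure D4:**
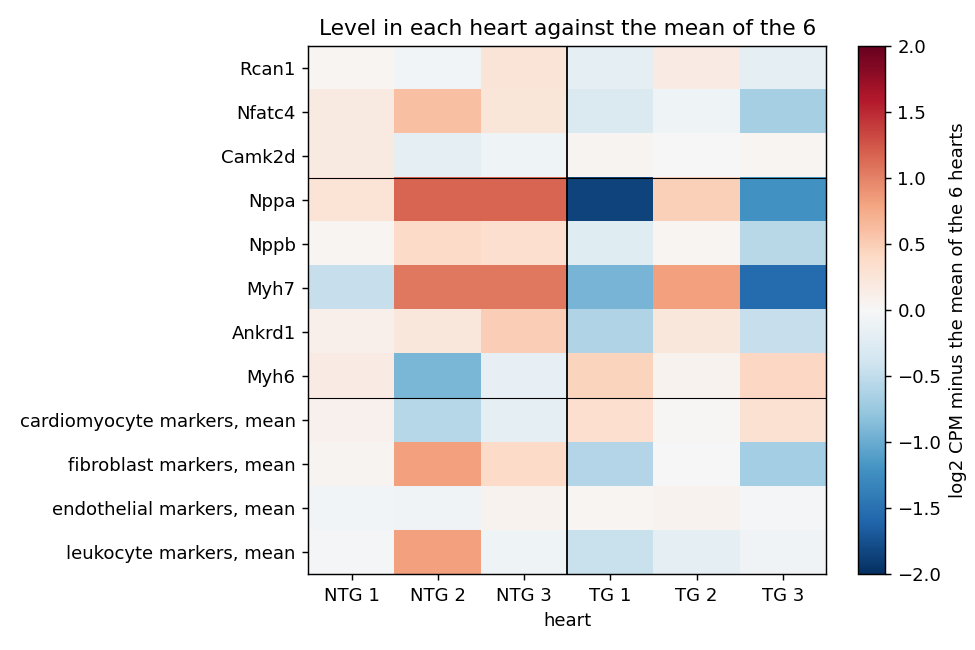
Log2 CPM in each of the 6 hearts minus the mean of the 6, as colour from blue (lower) to red (higher), for 3 signalling genes, 5 hypertrophy markers and the means of 4 lists of cell type markers. TG 1 and TG 3 are blue and TG 2 is pale or red for Rcan1, Nppa, Myh7 and Ankrd1, and the fibroblast mean runs from -0.682 in TG 3 to 0.818 in NTG 2.

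Markers of other cell types also differed between these hearts, and in bulk tissue fewer cells of a type and less RNA per cell cannot be told apart. The 6 fibroblast markers summed to 3098, 6775 and 4577 CPM in NTG and 1659, 2632 and 1563 CPM in TG, with 6 of 6 lower in TG, 4 of them at an unadjusted p under 0.05 (9.76% over all genes), and none of the 6 at 0. This sum, Nfatc4 and the first principal component of all genes ranked the 6 hearts in the same order, which was NTG 2, NTG 3, NTG 1, TG 2, TG 1 and TG 3. Mitochondrially encoded genes took 19.2%, 13.4% and 14.3% of counts in NTG and 21.5%, 16% and 20.3% in TG. Leukocyte markers summed to 183, 364 and 213 CPM in NTG and 133, 175 and 189 CPM in TG, with 5 of 6 tested markers lower and Cd3e too low to test. The 5 erythroid markers summed to between 1309.9 and 2245 CPM in NTG and between 762 and 908 CPM in TG, with 5 of 5 lower at an unadjusted p under 0.05 (9.76% over all genes). DESeq2 called 4 of the 5 erythroid and 3 of the 6 fibroblast markers lower in TG, against 2.4% of all genes. Without NTG 1, edgeR called 5 erythroid markers and 1 leukocyte marker lower, against 2.85% of all genes. The leukocyte marker was Csf1r (log2 fold change -0.77, edgeR's adjusted p = 0.0475). Csf1r was not called with all libraries (-0.59, edgeR's adjusted p = 0.221) or without NTG 2 (-0.32, edgeR's adjusted p = 0.474). Cardiomyocyte markers were higher in TG for 6 of 6 genes, with sums of 17928 to 30298 CPM in NTG and 29081 to 36105 CPM in TG. Endothelial markers were split, 3 higher and 3 lower, with sums of 1333 to 1488 CPM in NTG and 1344 to 1446 CPM in TG. Smooth muscle and pericyte markers were split in the same way, from 1111 to 1449 CPM in NTG and from 1182 to 1454 CPM in TG, but DESeq2 called 2 of the 6 higher in TG, against 1.54% of all genes, namely Myh11 (edgeR's log2 fold change 0.70, DESeq2's adjusted p = 0.0168) and Cnn1 (0.75, DESeq2's adjusted p = 0.0446). Marker genes named here were chosen after their values were seen. The part of these cell types, and of what the first component carries, in the Nfatc4 difference was not tested.

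Genes around the members were examined in 6 lists, which hold 67 genes together with the 7 hypertrophy markers. Of these 67 genes, 64 were tested, 30 with a higher and 34 with a lower fitted value in TG, and Ppp3r2, Camk1g and Trpc4 were too low. At an unadjusted p under 0.05, 8 of 64 were higher and 6 lower, against 8.83% and 9.76% of all genes, the shares to set beside each list below, and edgeR called 0. DESeq2 called 2 of the 64, Ppia and Orai2, both lower in TG, against 2.4% of all genes called lower by DESeq2. Without NTG 1, edgeR called 5 of them, against 5.52% of all genes, namely Ppia, Orai2, Camk2a, Cacna1h and Akap1. Akap1, named after its values were seen, encodes a mitochondrial anchoring protein and had a log2 fold change of 0.54 (edgeR's adjusted p = 0.217) with all libraries, 0.76 (edgeR's adjusted p = 0.0299) without NTG 1 and 0.38 (edgeR's adjusted p = 0.475) without NTG 2. The genes named below are those with the smallest unadjusted p in their list, up to a pair from each.

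**Figure D5:**
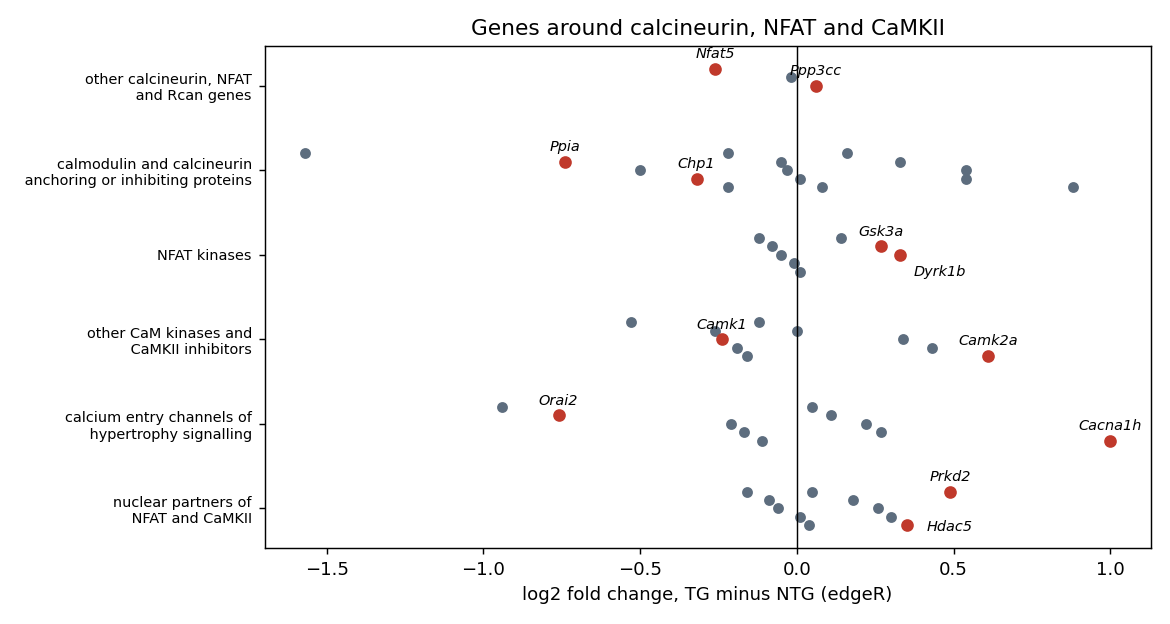
Log2 fold change, TG minus NTG, from edgeR's fit for the tested genes of the 6 lists around the members, 1 point per gene, with the genes of smallest unadjusted p in each list named in red. The points scatter on both sides of 0, from -1.57 to 1, and the named genes Hdac5 and Prkd2 lie to the right and Ppia and Orai2 to the left.

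Of the remaining genes of the same families, Nfat5, the osmotic-stress factor that calcineurin does not control, had 107, 115 and 102 CPM in NTG and 84.8, 96.4 and 89.7 CPM in TG. Its groups did not overlap, yet the log2 fold change of -0.26 (SE 0.09) had an adjusted p of 0.223 in edgeR's test. Ppp3cc differed by 0.06 (edgeR's adjusted p = 0.815), so no catalytic subunit gene was called.

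The anchoring and inhibiting proteins held the lowest p of the pathway. Of these 15 genes, 7 were higher and 8 lower, with 2 higher and 3 lower at an unadjusted p under 0.05 (8.83% and 9.76% over all genes). Ppia, which encodes cyclophilin A, the protein through which cyclosporin inhibits calcineurin, had 247, 203 and 171 CPM in NTG and 122, 131 and 120.4 CPM in TG. All TG hearts lay below all NTG hearts, with a log2 fold change of -0.74 (SE 0.14, edgeR's adjusted p = 0.196, DESeq2's adjusted p = 0.00129). Ppia has many processed pseudogene copies, and how reads shared with them were counted is not given in the sources used here, so its value is uncertain. DESeq2 lost the call without TG 3 (adjusted p = 0.0512), and edgeR without NTG 1 gave -0.59 (adjusted p = 0.0315). Chp1, a calcineurin-like calcium-binding protein that inhibits calcineurin, had 112, 113 and 112 CPM in NTG and 91.6, 100.3 and 78.6 CPM in TG (log2 fold change -0.32, SE 0.11, edgeR's adjusted p = 0.212).

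NFAT kinases put phosphate back on NFAT and so send it out of the nucleus. Of these 8 genes, 4 were higher and 4 lower, and 1 was higher at an unadjusted p under 0.05. This was Gsk3a, one of the GSK3 kinases, with 45.1, 42.7 and 47.3 CPM in NTG and 56.0, 51.8 and 54.4 CPM in TG (log2 fold change 0.27, SE 0.09, edgeR's adjusted p = 0.207). Dyrk1b, a priming kinase of NFAT, overlapped between the groups (log2 fold change 0.33, SE 0.14, edgeR's adjusted p = 0.271).

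Of the other CaM kinase genes and CaMKII inhibitors, 3 were higher and 7 lower, and 0 passed an unadjusted p under 0.05. Camk2a had 28.3, 10.2 and 17.6 CPM in NTG and 29.4, 26.8 and 29.3 CPM in TG. The library labelled NTG 1 matched the TG hearts here, and the log2 fold change was 0.61 (edgeR's adjusted p = 0.349) with all libraries, 1.04 (edgeR's adjusted p = 0.0411) without NTG 1 and 0.32 (edgeR's adjusted p = 0.586) without NTG 2. Camk1, a cytosolic CaM kinase, was lower by a log2 fold change of -0.24 (SE 0.12, edgeR's adjusted p = 0.319), with -0.35 without NTG 1 and -0.13 without NTG 2.

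Calcium entry channels feed calcium to calcineurin and CaMKII, and of 10 tested genes 5 were higher and 5 lower. Orai2, a store-operated channel subunit, had 10.1, 15.5 and 11.8 CPM in NTG and 8.58, 6.99 and 6.54 CPM in TG. Its groups did not overlap, and the log2 fold change was -0.76 (SE 0.20, edgeR's adjusted p = 0.196, DESeq2's adjusted p = 0.0381). DESeq2 kept this call without NTG 1 but lost it without any 1 of the other 5 libraries (adjusted p of 0.0882 to 0.331). Without NTG 1 edgeR gave -0.89 (adjusted p = 0.0422). Cacna1h, a T-type calcium channel that feeds calcineurin in pressure overload, had 7.85, 2.6 and 3.82 CPM in NTG and 10.8, 10 and 7.47 CPM in TG. NTG 1 lay above the lowest TG heart, and the log2 fold change was 1 (SE 0.39, edgeR's adjusted p = 0.232), 1.55 (edgeR's adjusted p = 0.0249) without NTG 1 and 0.70 (edgeR's adjusted p = 0.494) without NTG 2.

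Of the 11 nuclear partners, 8 had a higher fitted value in TG, against 48.7% of all genes, with a median log2 fold change of 0.046 (0.136 without NTG 1) and 0 called. Without adjustment, 4 were higher at p under 0.05 (Gata6, Mef2a, Hdac5 and Prkd2), against 8.83% of all genes. The groups did not overlap, with TG higher, for 4 as well (Mef2a, Mef2d, Hdac5 and Prkd2), as for 11.2% of all genes. Hdac5, a class II histone deacetylase that represses MEF2 until CaMKII or protein kinase D phosphorylates it, had 74.5, 61.5 and 70.8 CPM in NTG and 92.1, 82.9 and 88.6 CPM in TG. The log2 fold change was 0.35 (SE 0.10, edgeR's adjusted p = 0.196, DESeq2's adjusted p = 0.0887). Prkd2, a protein kinase D gene, had 49.8, 34.5 and 50.4 CPM in NTG and 64.0, 63.9 and 61.2 CPM in TG. All TG hearts were above all NTG hearts for both genes, and the log2 fold change of Prkd2 was 0.49 (SE 0.15, edgeR's adjusted p = 0.198, DESeq2's adjusted p = 0.083). Without NTG 1 DESeq2 called Prkd2 (0.58, adjusted p = 0.0263), and without NTG 2 its log2 fold change was 0.33 (edgeR's adjusted p = 0.412).

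The genes most like Rcan1 and Camk2d were read from Pearson's r of log2 CPM over the 6 libraries, among 14764 tested genes outside the members. For Rcan1 these were Col4a4, a basement membrane collagen (r = 0.986), Itga9, an integrin (0.982), Lca5 (0.982), Kif21a, a kinesin (0.981), and Sec22c (0.978), and 107 genes had an r over 0.9. Col4a4 had 34.2, 31.8 and 48.7 CPM in NTG and 28.2, 43.4 and 25.6 CPM in TG, with NTG 3 highest and TG 1 and TG 3 lowest as for Rcan1. For Camk2d they were Lcat, which esterifies plasma cholesterol (0.987), Fbxo3 and Zkscan3 (0.985 each), and Cdkn1c, a cell cycle inhibitor, and Grin3b (0.983 each), and 245 genes had an r over 0.9. Lcat lay at 0.69 to 1.77 CPM, so its values rest on few counts. With 6 points from the same libraries, such r values are a description of likeness only. Zkscan3 and Cdkn1c were called by DESeq2 without NTG 1 (log2 fold changes of 0.51 and 0.71, adjusted p = 0.00559 and 0.0221) and under none of the other 20 alternatives.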

How the data were processed

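The authors deposited raw read counts per gene, 1 column per heart and 0 columns without a sample. Per the methods, libraries were poly-A selected, reads were cleaned with in-house scripts and counted with featureCounts, and strand was not stated to be marked. The processing notes name HISAT2 and GRCh38, a human build, while the table lists mouse genes, 98.3% of those found in GENCODE release M21 (GRCm38) with identical coordinates. In the table, 27 gene names that had become dates were restored by identifier.

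The groups were compared by edgeR 4.0.16 in R 4.3.3 (TMM, filterByExpr by group, robust quasi-likelihood test, Benjamini-Hochberg over 14774 genes, 3 TG against 3 NTG libraries, no covariate). CPM use TMM, and log2 CPM a prior count of 2. SE is the log2 fold change over the root of F. DESeq2 1.42.0 and limma 3.58.1 were alternatives. In simulated counts over 14556 genes, edgeR recovered 8.16% of genes changed by 0.5 on the log2 scale, 49% at 1 and 94% at 2, with 13 false calls. These counts were drawn independently for each gene, without variation that a heart shares across genes. The recovery in the real libraries was therefore not measured and can be lower. Intervals for hearts reflect 3 per group, whose common biological coefficient of variation was 18.7%.

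The members, lists and tests were chosen with earlier results of these data known. Named genes are all members, the genes of smallest unadjusted p in each list, the hypertrophy markers, the genes most like Rcan1 and Camk2d, and Hint2. The authors' FPKM values and sham or knockout hearts were not analysed here.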

Additional observations from a re-analysis of the deposited data

How the results depend on the processing

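Of 210 recomputed member values (10 genes, 21 alternatives), 194 kept their direction and side of the threshold, 2 came to pass it (Nfatc4 by DESeq2, above) and 14 changed direction, all of them Ppp3cb, Nfatc2 or Camk2d. Ppp3cb became 0.02 in edgeR and 0.03 in DESeq2 without TG 3 or without NTG 2. Nfatc2 became 0.0016, 0.04 and 0.1 in edgeR without TG 1, TG 2 and NTG 2, and 0.01, 0.05, 0.11 and 0.00063 in DESeq2 without TG 1, TG 2, NTG 2 and NTG 3. Camk2d became -0.03 under library size alone and -0.02 without NTG 2 in both tools. Library size alone moved the median of all genes to -0.093. Among other named genes, Ppp3cc became -0.03 (library size alone), -0.05 and -0.04 (without TG 1), Acta1 0.09 and 0.1 (without TG 3) and 0.04 (without NTG 3), Fbxo3 -0.05 (library size alone), -0.03 and -0.02 (without NTG 2), Lcat -0.17, Cdkn1c -0.01 and -0.0044 (all without NTG 2), and Zkscan3 -0.11 (without NTG 2) and -0.07 (without NTG 3). Over the libraries left out, the far end of edgeR's range was -0.13 for Nfatc2, 0.16 for Camk2d, 0.13 for Fbxo3, 0.54 for Lcat, 0.5 for Zkscan3 and 0.7 for Cdkn1c (all without NTG 1), and 0.14 for Ppp3cc and -0.36 for Acta1 (both without TG 2). DESeq2 gave 0.17 for Camk2d, 0.14 for Fbxo3, 0.55 for Lcat, 0.51 for Zkscan3, 0.71 for Cdkn1c and 0.15 for Ppp3cc. In edgeR, leaving out 1 library gave -0.14 to -0.04 for Ppp3r1, -0.14 to -0.05 for Rcan2, -0.09 to -0.01 for Nfatc1 and -0.13 to -0.04 for Nfatc3. The causes were not tested.

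Of all genes, edgeR called 0, with 232 without the low-count filter, 545 by its likelihood-ratio test, 583 by DESeq2 and 0 by voom. Leaving out 1 library gave 0 to 836 with edgeR (836 without NTG 1) and, with DESeq2, 1773 without NTG 1, 123 without NTG 2, 169 without NTG 3, 179 without TG 1, 778 without TG 2 and 96 without TG 3. Of the members, 0 were called under every alternative but 2, with a range of 0 to 1 when a library was left out. Of the 64 genes around them, 2 were called without the filter, by DESeq2 and by the likelihood-ratio test, and 0 to 10 when a library was left out (5 in edgeR and 10 in DESeq2 without NTG 1, 5 in DESeq2 without TG 2). With the replicate block, 231 genes and 0 members were called. The labels state no pairing, and same-numbered libraries deviated from their group means with correlations of 0.0807, 0.173 and -0.252. With so few libraries, these values cannot settle whether libraries were paired. Nfatc4 had the fewest counts of the members, 121 to 338 in a library.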
